A study of Trachemys scripta with 24 samples.

Results

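MiR-122, miR-192 and miR-194, miRNAs known for their abundance in liver, were followed in the plasma of pond sliders around a gonadectomy. They were taken as every entry with the prefix cpi (painted turtle, *Chrysemys picta*) whose family number is exactly that of mir-122, mir-192 or mir-194, with both hairpin arms and any copy number. This gave 8 of the 1994 entries of the table and 8 of its 528 cpi entries, namely 2 of mir-122, 2 of mir-192 and 4 of mir-194, since mir-194 has 2 precursor copies. Of these, 5 had enough counts to be tested and 3 did not.

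Plasma small RNA of 8 sexually mature female *Trachemys scripta*, healthy turtles brought in for population control, was sequenced at T0 (24 h before surgery), T1 (2.5 h after) and T2 (36 h after), in 24 libraries (8 at each time). T1 and T2 both followed removal of the ovaries through the prefemoral region under dexmedetomidine, ketamine, midazolam and alfaxalone, with atipamezole and flumazenil given at the end. T0 plasma was from the same animals before any of these agents. Food was withheld from before T0, and the animals were feeding again before T2. Surgery, drugs, handling, feeding and elapsed time therefore cannot be told apart. The labels do not name the turtle of a library, and no unoperated group was analysed here. All values are from plasma, so the organ that released a miRNA was not measured, and the number of cells that released it cannot be told apart from the amount released per cell.

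MiR-122 is the most abundant miRNA of hepatocytes in mammals and other vertebrates studied, where it shapes lipid and cholesterol metabolism, and in mammals its plasma level is used as a sign of hepatocyte injury. MiR-192 and miR-194 are found in liver, intestine and kidney of mammals. In human and mouse their genes lie next to each other in shared transcripts, a miR-192 gene beside one miR-194 gene and a miR-215 gene beside the other, and miR-192 and miR-215 share a seed. The entries of the families are from precursor sequences, and no genome coordinates are given for them.

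Total counts per library ranged from 162285 to 1231952 at T0, from 132522 to 887581 at T1 and from 22648 to 2042924 at T2. These are sums over entries of all species, where a read may stand under several species, and they were 3.95 times the sums over cpi entries alone. The shallowest library was t39 at T2, with 5837 counts on cpi entries. CPM below is counts per 1000000 counts on the entries that passed the filter, scaled between libraries by TMM, edgeR's trimmed mean of M-values. The scaling factors ran from 0.653 in t32 to 1.33 in t39, and t50, at 0.672, was the other library far below 1.

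The 3 families differed widely in level. Cpi-mir-122-3p held 217744 counts over the 24 libraries and ranked 4 of 528 cpi entries by mean CPM. Cpi-mir-192-3p held 22175 counts (rank 28), cpi-mir-194-2-3p 12652 (rank 40) and cpi-mir-194-1-3p 12407 (rank 41). The remaining tested entry, cpi-mir-192-5p, had 958 counts (rank 131). Each of the other 3 was close to empty, with 71 counts on cpi-mir-194-2-5p, 14 on cpi-mir-122-5p and 8 on cpi-mir-194-1-5p. These 3 had a count in 13, 6 and 5 of 24 libraries, never more than 12 in a library, and were not tested.

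Nearly all counts of each hairpin thus stood on the arm named 3p. The share was 99.99% for mir-122 (95% exact binomial interval 99.989 to 99.997%), 95.9% for mir-192 (95.6 to 96.1%), 99.94% for mir-194-1 (99.87 to 99.97%) and 99.4% for mir-194-2 (99.3 to 99.6%). These intervals cover counting error only, since PCR copies of a molecule were not told apart, and not the spread between libraries. In single libraries the share ran from 79.4 to 100% for mir-192 and was at least 98.1% for each other hairpin of the families. In other vertebrates the main product of all 3 families is the 5p arm. Other hairpins whose usual main arm is well known were read in the same way. Of 24 such hairpins with at least 100 counts and no miRBase mark on their entries, 20 had most counts on the other arm, 1 on the usual arm and 3 near-equal counts on both (45 to 55%). The hairpin of mir-21, with 98.4% of counts on 3p, and that of mir-148a, with 0.0032% on 3p, are examples in either direction. All 4 hairpins with the miRBase mark, let-7d, let-7e, let-7g and let-7i, had most counts on the usual arm. For let-7e, let-7g and let-7i this was at least 99.7% on 5p. For let-7d it was only 56.8%, and its 3p share ran from 17.1 to 76.9% in single libraries. Arm names below are those of the table, and whether an entry named 3p is the miRNA called 5p elsewhere was not tested, since no sequences were at hand.

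**Figure D1:**
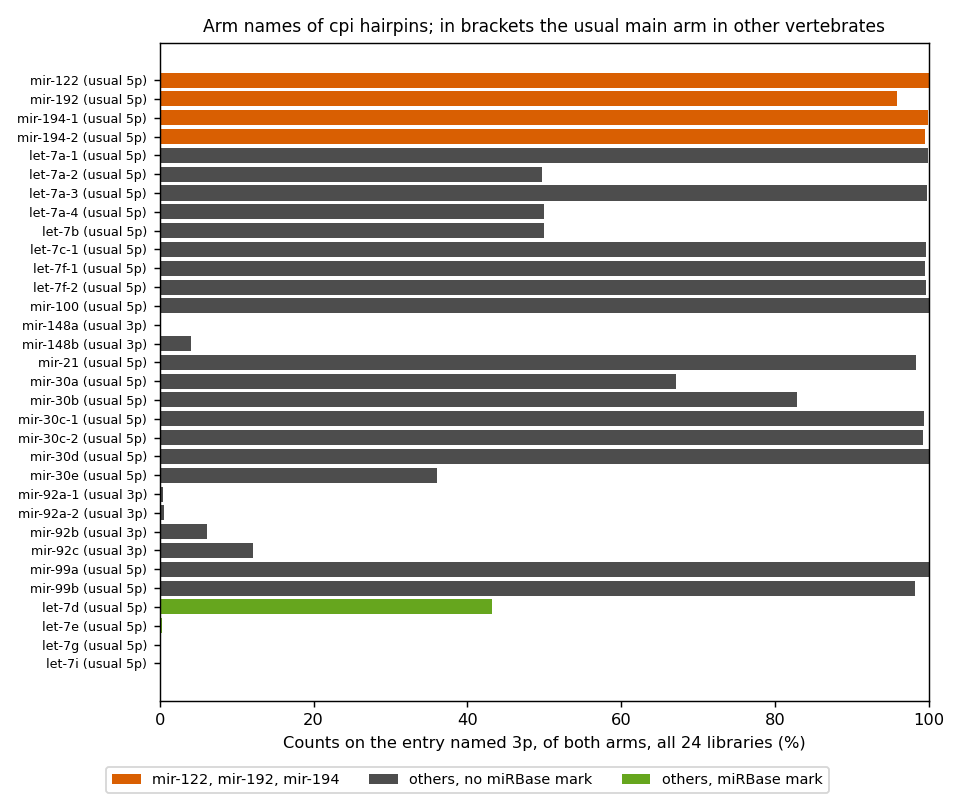
Percent of a hairpin's counts over 24 libraries that fell on the entry named 3p (x axis), for the 4 hairpins of mir-122, mir-192 and mir-194 and for 28 comparison hairpins with at least 100 counts, with the usual main arm in brackets. Bars of the 4 hairpins reach 95.9 to 99.99% although 5p is the usual arm, while the 4 let-7 hairpins with a miRBase mark stay between 0.02 and 43.2%.

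Several entries counted largely the same reads. The ami (American alligator), aca (green anole) and oha (king cobra) entries of mir-122-3p held 217744, 217881 and 217871 counts and differed from the cpi entry by at most 29 counts in any library. These names are therefore one measurement. The mir-192 entries were less alike, and ami-mir-192-3p held 66.1% and ami-mir-192-5p 24.8% of the counts of their cpi namesakes. The families had 18 entries in the other species altogether. The cpi copies cpi-mir-194-1-3p and cpi-mir-194-2-3p had a ratio between 0.722 (t39) and 1.17 (t54), with a median of 0.997 over 24 libraries. Their sum differed from the single entry oha-mir-194-1-3p by -0.20 to 1.27%. Their counts were thus largely separate parts of the count of that entry, not the same reads counted under both names. How reads were divided between the names was not tested, so separate values of the copies, and differences between them, are uncertain.

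Cpi-mir-122-3p varied widely between libraries of one time. At T0 it ran from 2598 CPM in t46 through a median of 7296 to 58673 CPM in t40. At T1 it ran from 2324 CPM in t35 through a median of 12517 to 108057 CPM in t32, with t50 at 98261 and t41 at 49167 CPM. At T2 it ran from 1597 CPM in t36 through a median of 5387 to 31961 CPM in t42. The T1 libraries split widely, with 3 far above the rest and t35 below every T0 library, and the 3 times overlapped. Means were 14521 ± 19008 CPM at T0, 36921 ± 43549 CPM at T1 and 10261 ± 10751 CPM at T2 (SD, n = 8 each), so each SD exceeded its mean. The highest library was 22.6 times the lowest at T0, 46.5 times at T1 and 20.01 times at T2.

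**Figure D2:**
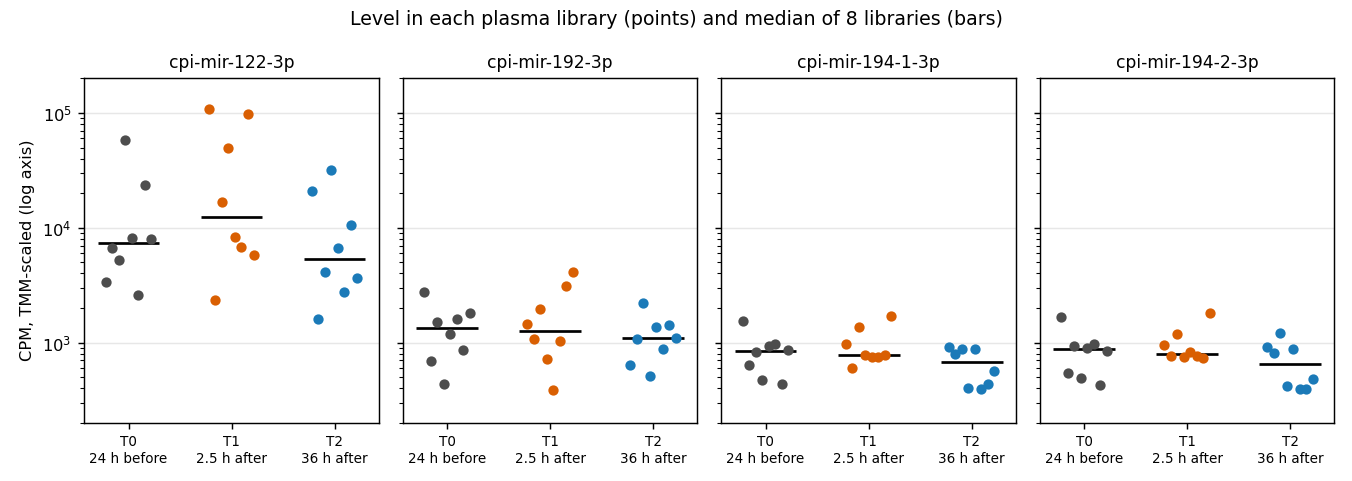
CPM on a log axis in each of the 24 libraries (points) for the most abundant entries, at T0, T1 and T2, with bars at the median of 8 libraries. Cpi-mir-122-3p spreads over 1597 to 108057 CPM, while cpi-mir-194-1-3p and cpi-mir-194-2-3p stay between 392 and 1799 CPM at all times.

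As a share of cpi counts, which does not depend on TMM, the median of cpi-mir-122-3p was 3.10% (T0), 5.14% (T1) and 2.49% (T2). It took 23.1% of cpi counts in t40 at T0, 27.8% in t32, 25.7% in t50 and 17.5% in t41 at T1, and 12.7% in t42 at T2. Its lowest share was 0.569%, in t36 at T2. Very high shares were thus found both before surgery and after it.

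**Figure D3:**
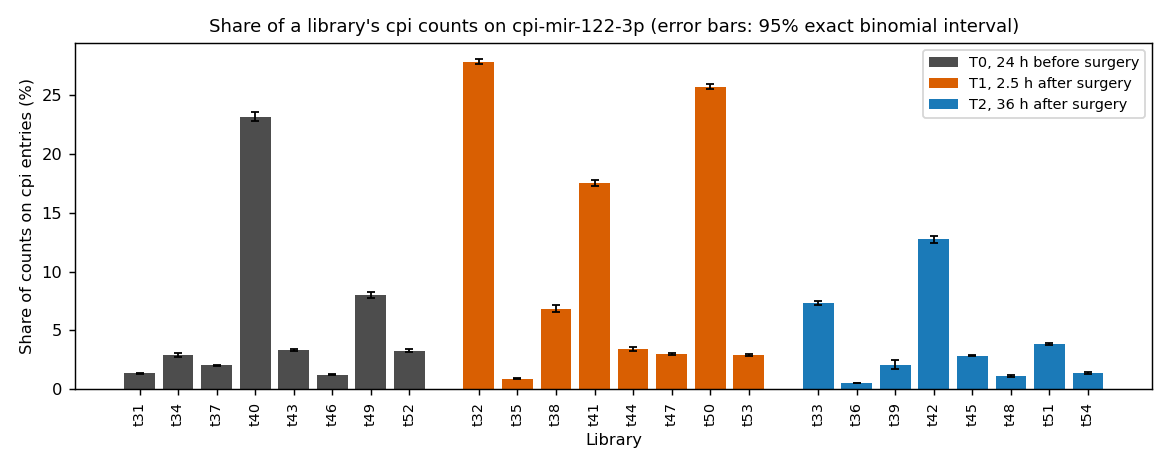
Share of a library's counts on cpi entries that fell on cpi-mir-122-3p (y axis, %) for each library (x axis), grouped by T0, T1 and T2, with 95% exact binomial intervals that cover counting error only. High bars occur at every time, with 23.1% in t40 at T0, 27.8% in t32 at T1 and 12.7% in t42 at T2.

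Across the libraries of a time, log2(CPM + 1) of cpi-mir-122-3p had a standard deviation of 1.48 (T0), 2.05 (T1) and 1.48 (T2). The median over the 198 cpi entries that were tested was 0.86, 0.92 and 0.97 at those times. Among the 40 cpi entries at least as abundant as cpi-mir-194-2-3p it was the second most variable at each time. The mir-194 copies varied less than the median over the 198 entries, with 0.59, 0.51 and 0.53 for cpi-mir-194-1-3p and 0.64, 0.45 and 0.65 for cpi-mir-194-2-3p. Among the 40 abundant entries the copies were near the middle. Counted from the most variable, cpi-mir-194-1-3p ranked 18, 24 and 25 and cpi-mir-194-2-3p 16, 26 and 14. Cpi-mir-192-3p lay between cpi-mir-122-3p and the copies, with 0.85, 1.11 and 0.68.

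Cpi-mir-192-3p ran from 437 CPM in t40 through a median of 1342 to 2747 CPM in t31 at T0. At T1 it ran from 389 CPM in t44 through 1261 to 4154 CPM in t53, and at T2 from 508 CPM in t42 through 1090 to 2229 CPM in t39. The medians differed little and the ranges overlapped, with t50 and t53 at T1 above every T0 library in CPM. As a share of cpi counts only t53 was, at 2.10%, with t50 at 0.817% and the T0 library t31 at 1.12%. Means were 1354 ± 737 CPM at T0, 1738 ± 1292 CPM at T1 and 1153 ± 541 CPM at T2 (SD, n = 8 each). The minor entry cpi-mir-192-5p averaged 54.2 ± 27.4, 83.9 ± 55.5 and 41.1 ± 30.8 CPM at T0, T1 and T2 (SD, n = 8 each), and had no count in t39. A count of 0 among the 5837 cpi counts of that library allows a share of up to 0.0514% (3 counts), above the 0.0322% in t51, the highest share of this entry in the other 7 T2 libraries.

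In CPM the 2 copies of mir-194 stayed within a narrower band than cpi-mir-122-3p. The share of cpi counts, which does not depend on TMM, spread more widely at T1. For cpi-mir-194-2-3p it ran from 0.146 to 0.675% at T0, from 0.191 to 0.911% at T1 and from 0.143 to 0.617% at T2. Cpi-mir-194-1-3p ran from 438 CPM in t49 through a median of 846 to 1538 CPM in t31 at T0, from 594 in t35 through 777 to 1701 in t53 at T1, and from 397 in t48 through 682 to 914 in t33 at T2. Cpi-mir-194-2-3p ran from 427 CPM in t49 through 871 to 1657 in t31 at T0, from 729 in t50 through 797 to 1799 in t53 at T1, and from 392 in t51 through 646 to 1216 in t39 at T2. For both copies the highest library was t31 at T0 and t53 at T1. In CPM of cpi-mir-194-2-3p 3 T2 libraries, t51, t48 and t42 (392, 394 and 420), lay narrowly below every T0 library (lowest 427, in t49). As a share of cpi counts only t51 did, at 0.143% beside 0.146% in t49, with t48 at 0.165% and t42 at 0.167%. Means of cpi-mir-194-1-3p were 836 ± 349 CPM at T0, 958 ± 378 CPM at T1 and 659 ± 229 CPM at T2 (SD, n = 8 each). Those of cpi-mir-194-2-3p were 845 ± 393, 971 ± 368 and 689 ± 309 CPM (SD, n = 8 each).

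None of the 5 tested entries passed the limits of the study in any comparison of times, which were a log2 fold change of 1 or more in either direction and an adjusted p no higher than 0.1. The adjusted p is from edgeR's quasi-likelihood test with Benjamini-Hochberg adjustment over all 690 entries tested. For T1 against T0 the count was 0 of 5, with 0.58% of all tested entries called. With an unadjusted p up to 0.05 and the same fold limit it was 0, where 4.2% of all entries passed, and it was 0 by DESeq2. For T2 against T0 the count was also 0 of 5 by edgeR (0% of all entries called), 0 at the unadjusted limit (5.07%) and 0 by DESeq2. For T2 against T1 it was 0 of 5 by edgeR (0% called) and 0 by DESeq2, and 1 at the unadjusted limit (3.62%), which was cpi-mir-122-3p.

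Cpi-mir-122-3p had the largest estimates of the 5 in each comparison and the widest intervals. Its log2 fold change at T1 against T0 was 1.35 (SE 0.78, 95% interval -0.17 to 2.87, unadjusted p = 0.0943, adjusted p = 0.66, edgeR), with 5 of 8 T1 libraries above the T0 median. Without t32 the estimate was 0.78, and without t40 it was 2.17, so single libraries at either time set its size. At T2 against T0 it was -0.50 (SE 0.76, interval -1.998 to 0.999, adjusted p = 0.916), with 3 of 8 T2 libraries above the T0 median. Without t40 this estimate had the opposite sign, 0.32. At T2 against T1 it was -1.85 (SE 0.79, interval -3.39 to -0.30, unadjusted p = 0.0268, adjusted p = 0.846), with 6 of 8 T2 libraries below the T1 median, and without t32 it was -1.20. The intervals include no change and a change of more than 2-fold for the comparisons with T0, so a moderate change of miR-122 was not detectable with this spread.

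Cpi-mir-192-3p had a log2 fold change of 0.36 at T1 against T0 (SE 0.42, interval -0.46 to 1.18), -0.24 at T2 against T0 (SE 0.42, -1.06 to 0.58) and -0.60 at T2 against T1 (SE 0.42, -1.43 to 0.22). Cpi-mir-192-5p had 0.62 (SE 0.48), -0.29 (SE 0.48) and -0.91 (SE 0.48) in the same comparisons. The mir-194 estimates were the smallest at T1 against T0, 0.19 (SE 0.29) for cpi-mir-194-1-3p and 0.20 (SE 0.31) for cpi-mir-194-2-3p. At T2 against T0 the copies had -0.35 (SE 0.29) and -0.31 (SE 0.31), and at T2 against T1 -0.54 (SE 0.29) and -0.51 (SE 0.31). Adjusted p-values of these 4 entries were between 0.756 and 0.936 (edgeR). The T1 estimates of cpi-mir-192-3p and of the mir-194 copies rested on 1 library, and without t53 they were -0.018 for cpi-mir-192-3p, -0.030 for cpi-mir-194-1-3p and -0.038 for cpi-mir-194-2-3p, while that of cpi-mir-192-5p was 0.48.

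**Figure D4:**
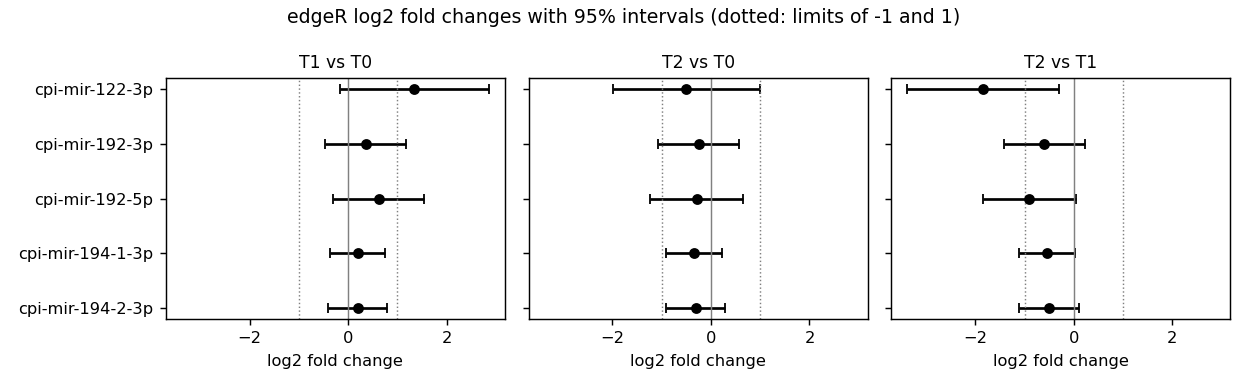
Log2 fold change by edgeR (points) with 95% intervals for the 5 tested entries in the 3 comparisons of times, with dotted lines at the fold limits of -1 and 1. All 15 intervals but that of cpi-mir-122-3p at T2 against T1 (-3.39 to -0.30) include 0.

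All 5 estimates were positive at T1 against T0, with a median log2 fold change of 0.36, beside 0.08 over all 690 entries, of which 42.5% were negative. All 5 were negative at T2 against T0, with a median of -0.31 beside -0.03 over all entries (51.4% negative). They were negative again at T2 against T1, with a median of -0.60 beside -0.11 (61.9% negative). The comparisons share libraries and the mir-194 copies may be parts of the same pool of reads, so these are not separate observations. Medians of CPM did not all rise at T1. The T1 median was 0.94, 0.92 and 0.91 times the T0 median for cpi-mir-192-3p, cpi-mir-194-1-3p and cpi-mir-194-2-3p. For these, 4, 3 and 3 of 8 T1 libraries lay above the T0 median. The ratio was 1.72 for cpi-mir-122-3p and 1.44 for cpi-mir-192-5p. Entries of the other species had nearly the same estimates, for example 0.39 for ami-mir-192-3p and 1.35 for aca-mir-122-3p at T1 against T0.

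Other families known to be abundant or enriched in mammalian liver (mir-215, mir-885, mir-148, mir-193, mir-365, mir-455, mir-101 and mir-22) had 22 cpi entries from 7 of the 8 families. Of these, 14 were tested, and 0 were called in any of the 3 comparisons by edgeR. At the unadjusted limit 1 entry passed for T2 against T1, where 3.62% of all tested entries did. In the comparisons with T0 0 passed, where 4.2% (T1) and 5.07% (T2) of all did. Median log2 fold changes of the 14 were 0.33 at T1 against T0, 0.02 at T2 against T0 and -0.30 at T2 against T1. Over all tested entries they were 0.08, -0.03 and -0.11. The most abundant was cpi-mir-148a-5p, at 36810 ± 10035 CPM at T0, 45890 ± 10292 CPM at T1 and 39923 ± 8091 CPM at T2 (SD, n = 8 each). It was thus more abundant on average than cpi-mir-122-3p with a far smaller spread. By total counts cpi-mir-22-5p (7070) and cpi-mir-193a-3p (6819) followed, at 562 ± 185 and 610 ± 311 CPM at T0. Cpi-mir-215-3p, of the family clustered with a miR-194 gene in human, averaged 344 ± 197 CPM at T0, 338 ± 156 CPM at T1 and 219 ± 116 CPM at T2 (SD, n = 8 each).

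Whether the families moved together was read from log2(CPM + 1) of the most abundant entry of each, cpi-mir-122-3p, cpi-mir-192-3p and cpi-mir-194-2-3p, within the 8 libraries of a time. MiR-192 and miR-194 moved in the same direction at T0 (Pearson r = 0.89, exact permutation p = 0.00384, Spearman rho = 0.79, exact permutation p = 0.0279), with r = 0.83 without t31 and t40, the libraries farthest from the median. At T1 r was 0.59 (exact permutation p = 0.126, rho 0.33, p = 0.428) and at T2 0.42 (exact permutation p = 0.298, rho 0.19, p = 0.665). Without the 2 farthest libraries r was 0.27 at T1 and -0.28 at T2. Adjusted over the 18 tests of 3 pairs, 3 times and 2 coefficients, the T0 value had p = 0.0692 for r and 0.101 for rho (exact permutation, Benjamini-Hochberg), so no relation passed 0.05. On CPM without TMM, or over cpi totals, some did, and the T0 value of this pair was r = 0.90 (adjusted exact permutation p = 0.0402 and 0.031). The choice of mir-194 copy mattered most at T1. There cpi-mir-194-1-3p, the other copy, had rho = 0.71 with miR-192, beside 0.81 within T0 and 0.29 within T2 (not tested). With all cpi entries of each family summed, r of miR-192 and miR-194 was 0.88 (T0), 0.64 (T1) and 0.40 (T2). The adjusted exact permutation p was 0.0866, 0.227 and 0.56.

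MiR-122 showed no such rise with the most abundant miR-192 and miR-194 entries. At T0 it was high where the other families were low, with r = -0.81 against miR-192 (exact permutation p = 0.0147, adjusted 0.0879, rho -0.69, p = 0.0694, adjusted 0.208) and r = -0.78 against miR-194 (exact permutation p = 0.0208, adjusted 0.0935, rho -0.86, p = 0.0107, adjusted 0.0879). Without t40 and t49 these r were -0.48 and -0.56. With CPM over cpi totals the adjusted exact permutation p was 0.031 for miR-192 and 0.0443 for miR-194. Without TMM that for miR-192 was 0.0402 and that for miR-194 0.0509. On these scales miR-122 is part of the total, with up to 23.1% of cpi counts at T0 (t40). A high miR-122 count there lowers the value of every other entry, and the part of this in r was not tested. At T1 r was 0.16 against miR-192 (exact permutation p = 0.694, rho 0.05, p = 0.935) and -0.21 against miR-194 (exact permutation p = 0.644, rho -0.21, p = 0.619). At T2 r was -0.55 (exact permutation p = 0.162, rho -0.26, p = 0.536) and -0.16 (exact permutation p = 0.696, rho 0, p = 1). Without the 2 farthest libraries the r between miR-122 and miR-192 was -0.20 at T1 and 0.44 at T2, and that between miR-122 and miR-194 was -0.10 at T1 and -0.19 at T2. The sign of the relation with miR-192 therefore rested on t32 and t50 at T1 and on t33 and t42 at T2. Against cpi-mir-194-1-3p, miR-122 had rho = 0.36 within T1, 0.12 within T2 and -0.74 within T0 (not tested). The T1 sign of rho against miR-194 thus depended on the copy chosen. Family sums do not depend on how reads were divided between the copies. With all cpi entries of each family summed, r of miR-122 and miR-194 was -0.81 (T0), -0.082 (T1) and -0.17 (T2). The adjusted exact permutation p was 0.0963, 0.935 and 0.885.

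**Figure D5:**
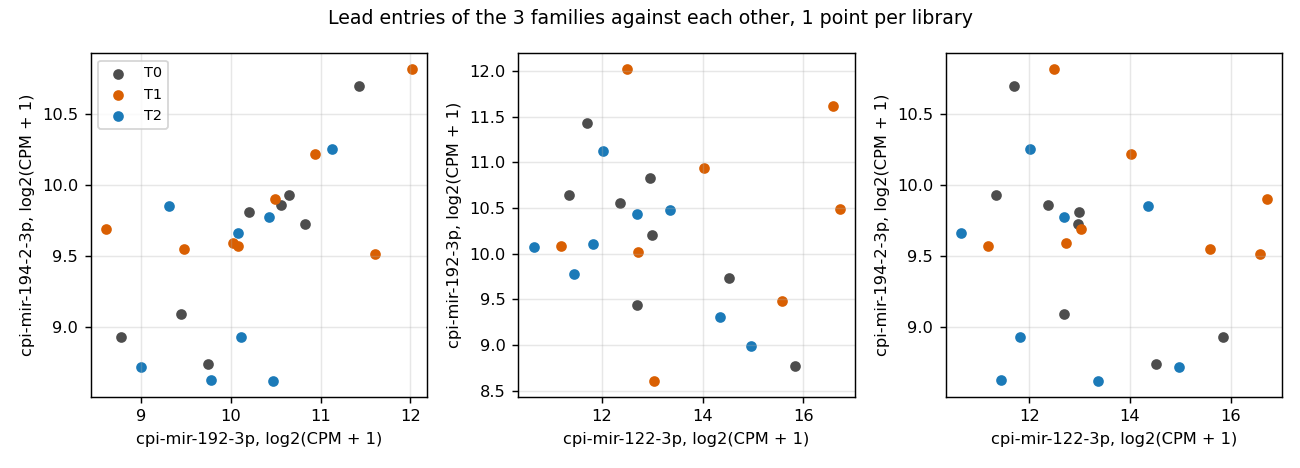
Log2(CPM + 1) of the most abundant entries of the 3 families against each other, 1 point per library, coloured by T0, T1 and T2. Cpi-mir-192-3p and cpi-mir-194-2-3p lie along a rising band over the 24 libraries (rho 0.60), in which each turtle stands 3 times. Within T0, T1 and T2 their rho was 0.79, 0.33 and 0.19. Neither rises with cpi-mir-122-3p over the 24 libraries (rho -0.23 and -0.21).

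Depth moved with these levels at T0. Across the 8 T0 libraries the log10 total count had rho = 0.79 with miR-192, 0.86 with miR-194 and -0.62 with miR-122, whereas with miR-194 it was -0.21 at T1 and -0.26 at T2, with miR-192 0.52 and -0.048, and with miR-122 0.29 and -0.12. These are descriptions, and the part of depth in the T0 relation was not tested. The red cell entries (mir-451 and mir-144, with no entry for mir-486) moved with miR-192 as well, and their summed CPM had rho = 0.40 at T0, 0.95 at T1 and 0.48 at T2 with it, and 0.48, 0.10 and 0.14 with miR-194. That sum ranged from 1828 to 13800 CPM at T0, from 1234 to 26672 at T1 and from 2378 to 16010 at T2, with its highest value in t50. Its 4 entries all had counts, and cpi-mir-451-3p, the red cell miRNA, carried most of them. The skeletal muscle entries (mir-1, mir-133, mir-206 and mir-208) ran the other way, with rho = -0.63 with miR-192 over 24 libraries, and their sum ranged from 131 to 25541 CPM at T0, from 673 to 25721 at T1 and from 525 to 2548 at T2. For the white cell entries (mir-223 and mir-142) rho with miR-192 over 24 libraries was 0.13. It was 0.07 for the epithelium entries (mir-200, mir-203, mir-205 and mir-429) and -0.08 for endothelium (mir-126), which had -0.67 at T1. With miR-122 the red cell, white cell, muscle, epithelium and endothelium sums had rho = -0.20, -0.32, 0.31, 0.29 and 0.36. The sum of the other liver families had rho = 0.49 with miR-122 over 24 libraries. Cpi-mir-148a-5p carried most of that sum and alone had rho = 0.48, so the value is mainly that of this entry. Cpi-mir-215-3p, of the same list, had rho = -0.05 with miR-122 over 24 libraries, with -0.48, -0.07 and -0.17 within T0, T1 and T2. The rho of the liver sum was 0.16 with miR-192 and 0.10 with miR-194. Its relation with miR-122 was strongest within T1 (rho = 0.76), beside 0.24 within T2 and 0.07 within T0 (not tested). The part of red cell or muscle RNA in the miR-192 values was not tested.

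Over all 24 libraries, in which each turtle stands 3 times, miR-192 and miR-194 had rho = 0.60 (r = 0.62), and cpi-mir-192-3p and cpi-mir-194-1-3p rho = 0.65. MiR-122 had rho = -0.23 with miR-192 (r = -0.18) and -0.21 with miR-194 (r = -0.19). Cpi-mir-192-5p had rho = 0.25 with its own cpi-mir-192-3p. Within a library the counts of cpi-mir-122-3p exceeded those of cpi-mir-192-3p in 24 of 24 libraries, from 1.21 times in t31 to 134 times in t40. At T0 the median ratio was 5.66, at T1 15.0 and at T2 4.04. Against the summed mir-194 copies the mir-122 count was higher in 23 of 24 libraries. The ratio of cpi-mir-192-3p to that sum stayed between 0.248 in t44 and 2.07 in t50. The ratio of miR-122 to miR-192 thus spanned 111-fold and that of miR-192 to miR-194 8.36-fold.

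Among the 197 other tested cpi entries, those most like cpi-mir-122-3p over 24 libraries, by Spearman's rho with no test, were cpi-let-7b-3p and cpi-let-7b-5p (0.65 each, with near-equal counts on both names), cpi-mir-204-3-5p (0.56), cpi-mir-218-2-3p (0.52) and cpi-mir-148a-5p (0.48). The mir-192 and mir-194 entries came far down that order, at rank 41 for cpi-mir-192-5p and 118 to 151 for the other 3. For cpi-mir-192-3p the nearest was cpi-mir-451-3p (0.69), then cpi-mir-194-1-3p (0.65), cpi-mir-144-3p (0.64), cpi-mir-26-3-3p (0.64), cpi-mir-365-2-5p (0.64) and cpi-mir-26-2-3p (0.63), with cpi-mir-194-2-3p at rank 8 and cpi-mir-122-3p at rank 154. For cpi-mir-194-2-3p the nearest was its copy cpi-mir-194-1-3p (0.95), which may be part of the same pool of reads. It was followed by cpi-mir-155a-3p (0.69), cpi-mir-215-3p (0.67) and cpi-mir-192-3p (0.60). Next came cpi-mir-26-3-3p (0.52), cpi-mir-147-5p (0.52) and cpi-mir-204-1-3p (0.51), and cpi-mir-122-3p stood at rank 163. Between cpi-mir-215-3p and cpi-mir-192-3p rho was 0.53.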

How the data were processed

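Small RNA of turtle plasma was sequenced in 24 libraries, grouped by the time in their labels. The authors clipped adapters with Cutadapt, aligned reads with BWA to miRNA precursors of saurian species in miRBase, and deposited whole-number counts per mature entry not normalized. The 3988 rows held every one of 1994 entries 2 times with equal counts, and 1 copy was used. Among 276 pairs of libraries 0 were identical. The labels name another extraction kit than the one selected in the methods, and this was not settled.

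EdgeR 4.0.16 in R 4.3.3 normalized counts by TMM, filtered with filterByExpr (690 entries kept, 5 of the 8 described) and compared times by quasi-likelihood tests in a single model of the 24 libraries, without a turtle term. The standard error is the log2 fold change over the root of F. Correlations of log2(CPM + 1) used two-sided exact permutation tests over the 40320 pairings. The p-values of edgeR measure the spread between libraries of the same time. They treat the 24 libraries as independent, although each turtle gave 3. Those of the correlations rest on the 8 libraries of a time, which come from 8 turtles. The members and lists were chosen with earlier results of these data known. The text names all 8 entries, examples from the 18 entries of other species, the 5 nearest non-member entries of each lead and the 3 most abundant of the liver list with mir-215. Alternatives were DESeq2 1.42.0, its size factors, no TMM, other filters, cpi entries only, counts summed over species, both rows, 2 times only, a robust fit, other limits, other CPM scales, a pseudocount of 10 and each library left out. Correlations were also computed with all cpi entries of a family summed. The fits were tested on simulated data. Python 3.11.15, numpy 2.4.6, scipy 1.17.1, pandas 2.3.3 and matplotlib 3.10.9 were used.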

Additional observations from a re-analysis of the deposited data

Results flagged for a closer look

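In 15 groups of 8 libraries (5 entries at 3 times), the gap from an extreme library to the next one, as a share of the group's range, was set against Dixon's 95% critical value for 8 samples, which chance passes in about 1 in 20 groups of normally distributed values. It was passed in 3 groups, which are not independent, since entries share libraries. Cpi-mir-122-3p at T0 had a ratio of 0.627 for t40, at 58673 CPM with the next library at 23534 CPM. Cpi-mir-194-2-3p at T0 had 0.554 for t31, at 1657 CPM with the next at 975 CPM. The same entry at T1 had 0.570 for t53, at 1799 CPM with the next at 1189 CPM. For cpi-mir-194-1-3p, which may be part of the same pool of reads, both ratios were below the limit. They were 0.518 for t31 at T0 and 0.309 for t53 at T1. On log2(CPM + 1), a scale added after the data were seen, the 3 ratios were 0.293, 0.391 and 0.458, all below the critical value, so these calls rest on the linear scale of CPM. On the log2 scale cpi-mir-192-5p at T2 passed it instead, with 0.615 for t39, the library with no count of it. The causes were not tested.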

How the results depend on the processing

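The count of 0 called entries held for T1 against T0 and T2 against T0 under 12 alternatives and with each of 24 libraries left out. Among these alternatives, an adjusted p limit of 0.05 was stricter than the main limit and could only give 0. For T2 against T1 the count was 1 when an unadjusted p up to 0.05 was allowed and otherwise 0. Of the alternative log2 fold changes, 0 passed both limits and 10 lay on the other side of the fold limit alone. In 506 the direction was kept. The other 4 turned without 1 library, namely -0.018 (cpi-mir-192-3p), -0.030 (cpi-mir-194-1-3p) and -0.038 (cpi-mir-194-2-3p) at T1 against T0 without t53, and 0.32 (cpi-mir-122-3p) at T2 against T0 without t40. Their highest values with 1 library left out were 0.55, 0.33 and 0.37, all without t31, and the lowest for cpi-mir-122-3p was -1.005, without t42. Without TMM the miR-122 estimate at T1 against T0 was 0.97.

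Some T0 correlations passed 0.05 on other scales of CPM. Without TMM r was -0.87 for miR-122 and miR-192 and 0.90 for miR-192 and miR-194 (adjusted exact permutation p = 0.0402 for both). Over cpi totals r was -0.88 (p = 0.031) and 0.90 (p = 0.031), and -0.82 for miR-122 and miR-194 (p = 0.0443), by the same exact permutation test. At T1 the r of miR-122 and miR-192 was -0.068 without TMM and -0.070 over cpi totals. With 1 library left out, r of miR-122 and miR-192 ran from -0.91 to -0.61 at T0, -0.072 (without t50) to 0.44 at T1 and -0.64 to -0.25 at T2. That of miR-122 and miR-194 ran from -0.86 to -0.73, -0.45 to 0.10 (without t53) and -0.38 to 0.10 (without t42) at those times. That of miR-192 and miR-194 ran from 0.83 to 0.94 (without t49, adjusted exact permutation p = 0.05), 0.22 to 0.85 and 0.06 to 0.67. Why these values moved was not tested.

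No paired analysis was possible because the labels do not name the turtle. Few counts limit the 3 low entries, and depth limits the values of t39.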
